A study of Homo sapiens with 6 samples.

Results

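The mRNAs of 9 enzymes that supply or control deoxynucleotides, the building blocks of DNA, were followed here in A549 cells given siRNA against RPS19. These 9 were chosen with earlier results of these data known. The 9 genes are RRM1, RRM2, RRM2B, TYMS, TK1, TK2, DUT, DCK and SAMHD1, taken by symbol on the reference chromosomes of the authors' gene table, out of 63152 genes counted. All 9 had enough counts to be tested among 17171 genes. The cells of the siRPS19 group were A549, a line from a human lung adenocarcinoma, transfected with a pool of siRNAs against RPS19, a protein of the small ribosomal subunit, at 10 nM for 72 hours. Those of the siOTP group were A549 cells given a non-targeting siRNA at the same dose and time. Each group had 3 biological replicates per the labels. The RPS19 pool (siGENOME) and the control (ON-TARGETplus) are different product lines, so siRNA chemistry and target cannot be told apart, and A549 is a single line.

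Deoxynucleotides are made by ribonucleotide reductase, which removes an oxygen from ribonucleotides. Its large subunit is RRM1. Its small subunit is RRM2, which accumulates in S phase, or RRM2B, also called p53R2, whose gene is a known p53 target and which serves DNA repair and mitochondrial DNA in resting cells. Thymidine nucleotides come from thymidylate synthase (TYMS), which methylates dUMP, and from salvage of thymidine by TK1 in the cytosol or TK2 in mitochondria. DUT hydrolyses dUTP to dUMP, DCK salvages deoxycytidine and purine deoxynucleosides, and SAMHD1 breaks deoxynucleoside triphosphates down.

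The siRNA target was low in every library of its group. RPS19 held 44.6, 36.0 and 44.4 CPM (read counts scaled to a common library size with TMM factors) in the siRPS19 libraries, against 1474, 1374 and 1567 CPM in the siOTP libraries. Gene counts totalled 20814110 to 23889372 per library. Reads outside genes made up 5.13% to 6.36% of entries in siRPS19 and 3.39% to 3.85% in siOTP. The summed level of 5 epithelial markers was 1124 to 1266 CPM in siRPS19 and 1760 to 2233 CPM in siOTP, most of it KRT8. KRT18 averaged 164 CPM in siRPS19 and 432 CPM in siOTP, while KRT19 went against the sum, with 245 CPM in siRPS19 and 35.7 CPM in siOTP. EPCAM averaged 3.36 CPM in siRPS19 and 4.98 CPM in siOTP, and CDH1 50.0 CPM in siRPS19 and 30.6 CPM in siOTP. The 5 leukocyte markers summed to at most 2.98 CPM and the 4 endothelial markers on reference chromosomes to at most 0.390 CPM, with CD3E at 0. The 5 fibroblast markers summed to 14.5 to 20.1 CPM in siRPS19 and 35.1 to 42.4 CPM in siOTP, most of it COL1A1. The part of these shifts in the results below was not tested.

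RRM2 and TK1, the subunit and the kinase tied to S phase, were more than 50-fold lower in siRPS19. RRM1, DCK and DUT were 3.04-fold to 3.87-fold lower. TYMS and SAMHD1 were within 1.29-fold of the siOTP level, and RRM2B and TK2, the forms that serve resting cells and mitochondria, were 1.96-fold and 1.65-fold higher. At an adjusted p below 0.05, 7 of the 9 were lower and 2 higher, while 78.3% of all tested genes passed, 38.9% lower and 39.5% higher. These are 6673 lower and 6778 higher genes, and scaling by library totals gave 4734 lower and 9114 higher. With library totals 5 of the 9 members were lower and 3 higher: TYMS no longer passed and SAMHD1 passed as higher. In each of the 9 the CPM of the groups did not overlap, which held for 79.7% of all tested genes, so passing the test does not set these genes apart. At least 2-fold lower and past the threshold were 5 of the 9, against 12.4% of all tested genes. The median log2 fold change of the 9 was -1.61, against 0.02 over all genes tested. In bulk RNA, fewer cells in S phase and less mRNA in each cell cannot be told apart.

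**Figure D1:**
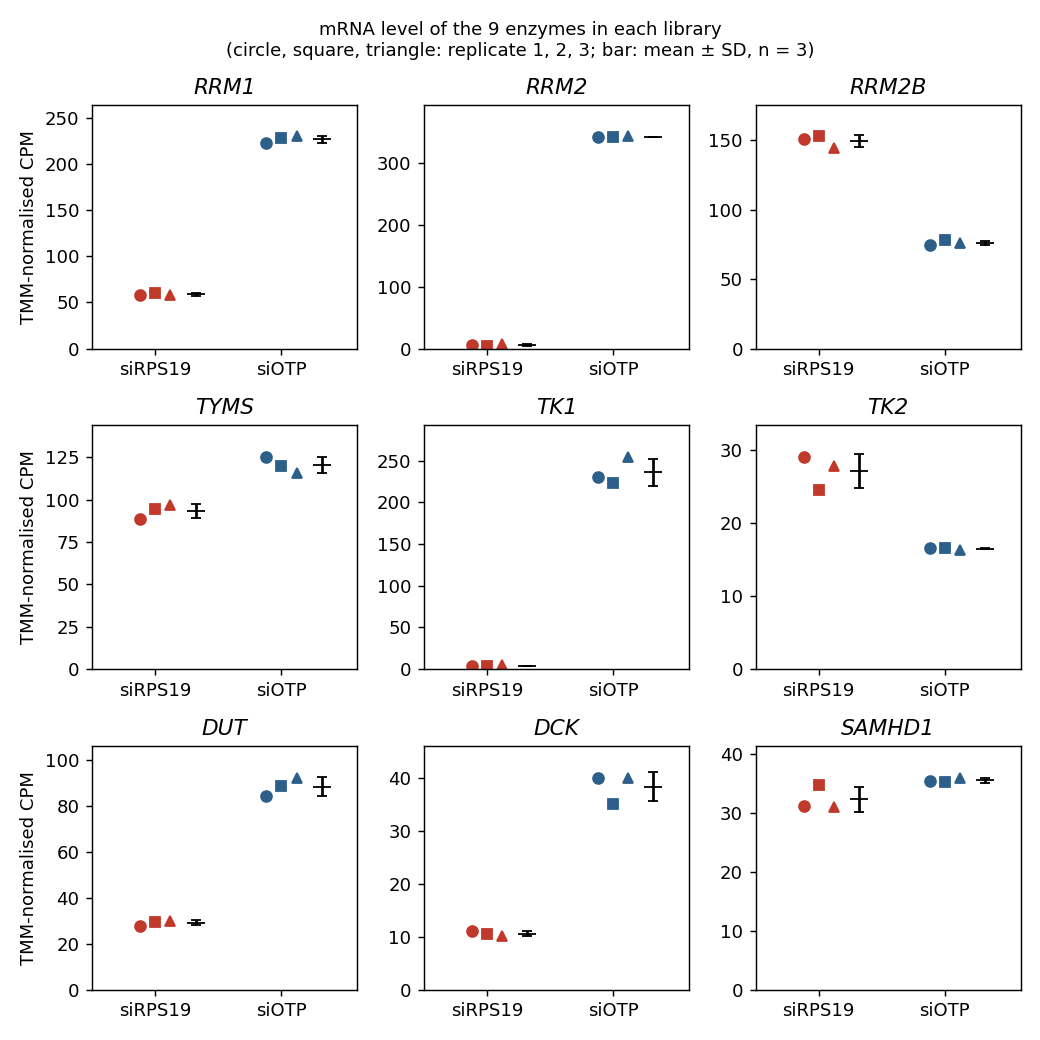
TMM-normalised CPM (y axis, from 0) of each enzyme in the 3 siRPS19 libraries (red) and the 3 siOTP libraries (blue), with the mean and SD of each group in black. RRM2 and TK1 lie close to 0 in all siRPS19 libraries, RRM2B and TK2 lie above the siOTP libraries, and TYMS and SAMHD1 lie near them.

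Promoter sequences of 4 members are shown here because these genes bracket the range of the falls: RRM2 and TK1 with the deepest, DUT in the middle and TYMS with a small one. Each runs from 250 bases before to 50 bases after a RefSeq transcription start (GRCh38.p14), 5′ to 3′ on the gene's strand. Capitals mark matches on either strand to the E2F-type octamers TTTCCCGC, TTTGGCGC, TTTCGCGC and TTTGCCGC, to TTTGAA (the CHR element of cell cycle genes) or to CCAAT (the CCAAT box). No 2 matches overlap.
RRM2, chr2:10122489-10122788, plus strand: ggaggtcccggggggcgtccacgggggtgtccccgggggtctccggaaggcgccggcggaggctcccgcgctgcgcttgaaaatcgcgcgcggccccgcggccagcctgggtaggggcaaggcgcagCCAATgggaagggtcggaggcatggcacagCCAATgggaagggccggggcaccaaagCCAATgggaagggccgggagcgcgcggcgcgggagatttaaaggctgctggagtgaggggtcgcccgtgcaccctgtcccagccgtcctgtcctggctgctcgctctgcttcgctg
TK1, chr17:78187003-78187302, minus strand: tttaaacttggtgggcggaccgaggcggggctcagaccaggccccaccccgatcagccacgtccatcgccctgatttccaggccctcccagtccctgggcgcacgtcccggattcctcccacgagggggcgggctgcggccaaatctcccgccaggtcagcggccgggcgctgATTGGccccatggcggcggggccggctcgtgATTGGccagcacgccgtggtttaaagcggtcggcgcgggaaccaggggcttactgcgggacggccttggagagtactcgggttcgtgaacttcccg
DUT, chr15:48331947-48332246, plus strand: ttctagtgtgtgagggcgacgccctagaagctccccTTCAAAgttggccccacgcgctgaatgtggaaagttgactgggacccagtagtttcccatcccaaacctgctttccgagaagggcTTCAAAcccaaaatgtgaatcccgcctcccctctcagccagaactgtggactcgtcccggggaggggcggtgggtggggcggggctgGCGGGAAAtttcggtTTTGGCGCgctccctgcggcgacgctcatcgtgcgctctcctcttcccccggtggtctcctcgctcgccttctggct
TYMS, chr18:657403-657702, plus strand: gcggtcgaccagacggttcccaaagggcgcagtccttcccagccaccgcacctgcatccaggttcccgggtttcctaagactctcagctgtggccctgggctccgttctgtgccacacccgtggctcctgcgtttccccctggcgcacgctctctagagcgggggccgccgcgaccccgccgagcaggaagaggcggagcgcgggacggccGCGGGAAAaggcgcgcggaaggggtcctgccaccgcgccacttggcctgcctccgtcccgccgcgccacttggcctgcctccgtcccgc

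In the windows shown, RRM2 had 3 CCAAT boxes, first bases at -123, -93 and -66 from the start, and TK1 had 2, both on the other strand, at -77 and -46. CCAAT occurred in 34.6% of the 35116 promoter windows of this length in the RefSeq table. Neither of these windows held an E2F-type octamer or TTTGAA in these exact letters. DUT had TTTCCCGC on the other strand at -42, TTTGGCGC at -27 and TTTGAA on the other strand at -214 and -129. TYMS had TTTCCCGC on the other strand at -39 and no other match. Over all windows 3.31% held at least 1 of the 4 octamers and 15.2% held TTTGAA. DCK had TTTGGCGC on the other strand at 21 bases past its start. RRM1 held a CCAAT box at -28 and TTTGAA on the other strand at -199, SAMHD1 had 2 CCAAT boxes, and TK2 had no match. In all, 13 windows of 8 members were searched. None of them belonged to RRM2B, so its promoter is left undescribed. DUT has 3 further windows and TK1 has 1, all without a match, and the second RRM2 window has 1 CCAAT box; the windows printed are those with the most matches. A match is a string of letters and not a measured binding site.

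The mRNAs of the ribonucleotide reductase subunits changed in their proportions. RRM1 (ENSG00000167325, chromosome 11, 4115937 to 4160106, hg19), the large subunit with the catalytic site, had 57.7, 60.6 and 57.5 CPM in siRPS19 libraries and 222, 228 and 230 CPM in siOTP libraries. The libraries of each group lay close together and the groups did not overlap. RRM1 fell 3.87-fold, a log2 fold change of -1.95 ± 0.04 (SE, adjusted p = 6.35e-20, by the quasi-likelihood test of edgeR over all genes, as for every adjusted p of a gene here). Its antisense partner RRM1-AS1 had at most 2 counts in any library.

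RRM2 (ENSG00000171848, chromosome 2, 10262455 to 10271545, hg19), the small subunit that carries the tyrosyl radical in dividing cells, had 6.35, 4.73 and 7.86 CPM in siRPS19 libraries, from 165, 109 and 190 counts. In siOTP libraries it had 341, 341 and 342 CPM, from 7118, 6741 and 6635 counts. Replicate 2 was the lowest of the siRPS19 libraries, and all 3 were far below every siOTP library. RRM2 fell 53.9-fold, a log2 fold change of -5.75 ± 0.11 (SE, adjusted p = 2.48e-11), the 40th lowest of 17171 genes. The coefficient of variation was 24.8% in siRPS19 and 0.122% in siOTP. The siOTP figure lies below the counting noise of 6635 to 7118 counts, so it overstates the precision there. Of its 3 annotated pseudogenes 2 held a count, with at most 8 in a library.

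RRM2B (ENSG00000048392, chromosome 8, 103216730 to 103251346, hg19), the p53-inducible small subunit, went the other way. It had 151, 153 and 144 CPM in siRPS19 libraries and 74.5, 77.8 and 75.9 CPM in siOTP libraries. Each siRPS19 library was near 150 CPM and none came close to the siOTP values. RRM2B rose 1.96-fold, a log2 fold change of 0.97 ± 0.04 (SE, adjusted p = 8.10e-15), which stood at the 81.0th percentile of the fold changes of all tested genes, counted from the lowest. Scaling by library totals shifted the log2 fold changes of all genes by a median of 0.29, and RRM2B then stood at 1.26.

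Set against each other per library and per length, RRM2 and RRM2B exchanged places. The log2 ratio of RRM2 to RRM2B, from counts per kilobase of the authors' transcript length, was -4.40, -4.84 and -4.03 in siRPS19 libraries and 2.36, 2.30 and 2.34 in siOTP libraries. RRM2 mRNA was thus 5.03 times RRM2B in siOTP, and RRM2B was 21.5 times RRM2 in siRPS19. The change in the log2 ratio was -6.76, with p = 0.1 by a two-sided exact permutation test, the lowest p that 3 libraries against 3 can reach. Scaling cancels in this ratio. RRM2B made up 95.5% ± 1.20 of the small-subunit mRNA in siRPS19 and 16.6% ± 0.298 of it in siOTP (SD, n = 3 each, exact permutation p = 0.1).

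The rise of RRM2B was smaller than the loss of RRM2. RRM2 and RRM2B together came to 28.2 ± 0.482 CPM per kilobase in siRPS19 and 82.7 ± 0.304 CPM per kilobase in siOTP (SD, n = 3 each). RRM1 stood at 14.0 ± 0.417 CPM per kilobase in siRPS19 and 54.3 ± 0.930 in siOTP. The log2 ratio of RRM1 to both small subunits was -1.04 to -0.97 in siRPS19 libraries and -0.63 to -0.59 in siOTP libraries. This balance shifted by -0.40, or 1.32-fold, without overlap of the groups (p = 0.1, exact permutation). Subunit proteins were not measured.

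**Figure D2:**
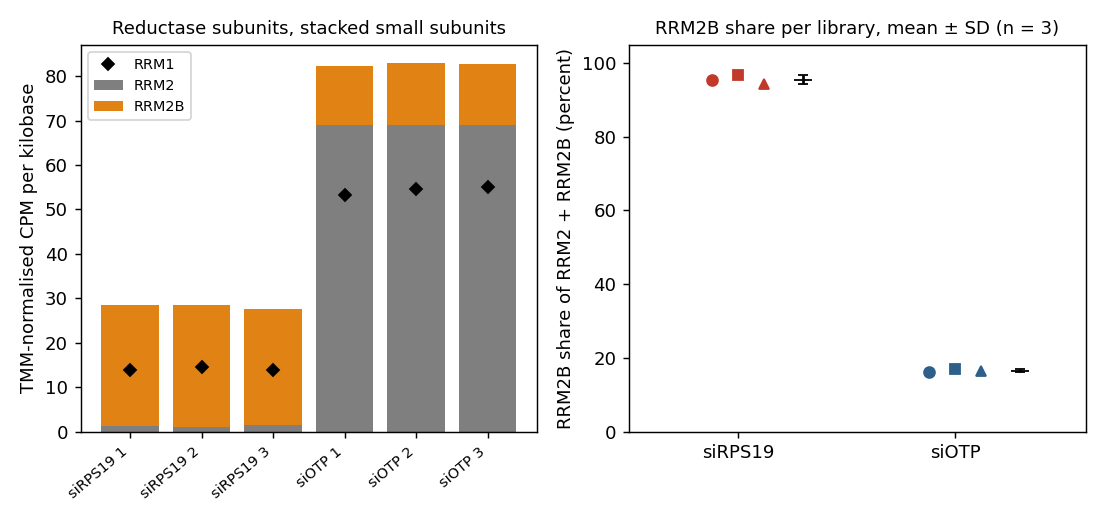
Left, CPM per kilobase of RRM2 (grey) and RRM2B (orange) stacked for each library, with RRM1 as black diamonds; right, the RRM2B share of the stack in percent, with the mean and SD (n = 3). The siRPS19 libraries hold 94.3% to 96.6% RRM2B in a stack near 28 CPM per kilobase, and the siOTP libraries 16.3% to 16.9% in a stack near 83 CPM per kilobase.

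Of the thymidine kinases, the cytosolic one fell and the mitochondrial one rose. TK1 (ENSG00000167900, chromosome 17, 76170160 to 76183314, hg19), the kinase of S phase, had 3.58, 3.77 and 4.30 CPM in siRPS19 libraries and 230, 223 and 254 CPM in siOTP libraries. Its counts were 93, 87 and 104 in siRPS19 and 4803, 4412 and 4928 in siOTP, so no library of one group came near the other. Its log2 fold change of -5.92 ± 0.07 (SE, adjusted p = 6.95e-23) was the 29th lowest of all genes tested.

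TK2 (ENSG00000166548, chromosome 16, 66541906 to 66586447, hg19), which keeps mitochondrial thymidine and deoxycytidine nucleotides available, had 29.1, 24.6 and 27.8 CPM in siRPS19 libraries and 16.6, 16.6 and 16.4 CPM in siOTP libraries. Replicate 2 was the lowest siRPS19 library and still exceeded every siOTP library. TK2 rose 1.65-fold, a log2 fold change of 0.72 ± 0.07 (SE, adjusted p = 1.34e-08). The log2 ratio of TK1 to TK2 per length was -1.07, -0.75 and -0.74 in siRPS19 and 5.74, 5.70 and 5.90 in siOTP, which is a shift of -6.63 (p = 0.1, exact permutation). Per length TK1 was 55.0 times TK2 in siOTP, and TK2 was 1.80 times TK1 in siRPS19. Both multiples rest on the authors' transcript lengths, 1857 bases for TK1 and 7169 for TK2. Without length, mean CPM in siOTP was 236 for TK1 and 16.5 for TK2, and in siRPS19 3.88 for TK1 and 27.2 for TK2.

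TYMS (ENSG00000176890, chromosome 18, 657604 to 673578, hg19), the enzyme of de novo thymidylate synthesis, stayed close to its siOTP level. It had 88.5, 94.7 and 96.7 CPM in siRPS19 libraries and 125, 120 and 116 CPM in siOTP libraries. The groups did not overlap, but the gap between them was narrow. TYMS fell 1.29-fold, a log2 fold change of -0.37 ± 0.04 (SE, adjusted p = 2.13e-07), and with library totals the value was -0.08 with adjusted p = 0.12. Against DUT, the next lower member, the change in the per-library log2 ratio (DUT over TYMS) was -1.24, with non-overlapping groups (exact permutation p = 0.1, adjusted p = 0.13 over 8 neighbour pairs).

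TYMS overlaps annotated genes on the opposite strand at both ends, and the labels do not say that the libraries kept strand. ENOSF1, which shares 3255 of the 15975 bases of TYMS, had 612, 448 and 532 counts in siRPS19 and 658, 644 and 570 in siOTP (log2 fold change -0.52 ± 0.07 SE, adjusted p = 1.03e-06). C18orf56, now TYMSOS, which shares 737 bases, had 80, 64 and 82 counts in siRPS19 and 27, 18 and 17 in siOTP. TYMS held 2183 to 2337 counts in siRPS19 and 2247 to 2611 in siOTP. How reads in the shared bases were assigned is not given in the sources used here.

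DUT (ENSG00000128951, chromosome 15, 48623208 to 48635570, hg19), the dUTPase that keeps uracil out of DNA and feeds dUMP to TYMS, had 27.9, 29.4 and 30.0 CPM in siRPS19 libraries and 84.5, 88.7 and 92.4 CPM in siOTP libraries. All siRPS19 libraries were near a common low level. DUT fell 3.04-fold, a log2 fold change of -1.61 ± 0.05 (SE, adjusted p = 6.84e-17). Of 8 annotated DUT pseudogenes 2 held a count, at most 3 in a library.

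DCK (ENSG00000156136, chromosome 4, 71858255 to 71896631, hg19), the deoxycytidine kinase that also activates drugs such as gemcitabine and cytarabine, had 11.0, 10.5 and 10.1 CPM in siRPS19 libraries and 40.1, 35.2 and 40.02 CPM in siOTP libraries. The lowest siOTP library stood well above every siRPS19 library. DCK fell 3.64-fold, a log2 fold change of -1.86 ± 0.07 (SE, adjusted p = 2.36e-15). MOB1B, on the same strand, spans 29912 of the 38377 bases of DCK and had a log2 fold change of 0.06 ± 0.06 (SE, adjusted p = 0.38), and 0.34 with library totals (adjusted p = 9.87e-06). As for TYMS, how reads in the shared bases were assigned is not given, so the level of DCK carries that uncertainty.

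SAMHD1 (ENSG00000101347, chromosome 20, 35518632 to 35580246, hg19), the triphosphohydrolase that lowers deoxynucleotide pools outside S phase, had 31.2, 34.8 and 31.1 CPM in siRPS19 libraries and 35.4, 35.3 and 36.0 CPM in siOTP libraries. Replicate 2 of siRPS19 lay just under the siOTP libraries, and the other siRPS19 libraries were lower. The log2 fold change was -0.14 ± 0.06 (SE, adjusted p = 0.035), and it was 0.15 (adjusted p = 0.028) with library totals and 0.03 (adjusted p = 0.59) with upper-quartile factors, so no direction is given. Without siRPS19 replicate 1, siRPS19 replicate 3 or siOTP replicate 3 the adjusted p was 0.19, 0.20 and 0.051.

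**Figure D3:**
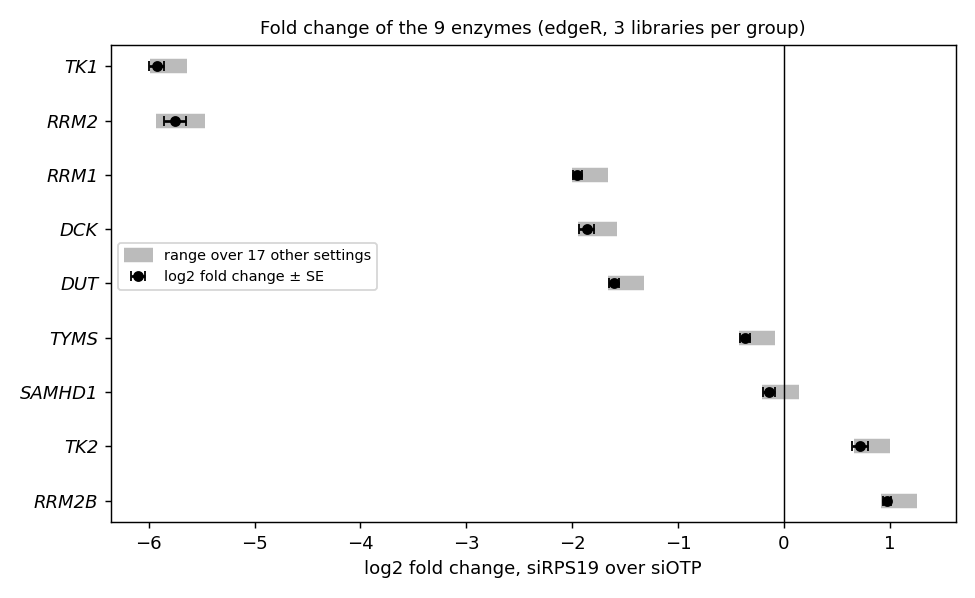
Log2 fold change of siRPS19 over siOTP (x axis) for each enzyme, ordered from the lowest at the top, with its SE (black) and the range over 17 other settings (grey). TK1 and RRM2 lie below -5, RRM1, DCK and DUT between -2 and -1.6, TYMS and SAMHD1 near 0, and TK2 and RRM2B above 0; only the range of SAMHD1 crosses 0.

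In the order of fold changes, 2 pairs of neighbours had ratios that overlapped between the groups. The order was taken from these same libraries, so the direction of each step was largely set beforehand. The per-library log2 ratio of TK1 to RRM2 changed by -0.14, with overlapping groups, and that of RRM1 to DCK by -0.09, also overlapping (p = 0.5 for both by exact permutation, adjusted p = 0.50 over 8 neighbour pairs). For the other 6 pairs the ratios of the groups did not overlap (exact p = 0.1, adjusted p = 0.13). The step from RRM2 to RRM1, subunits of the same enzyme, was the widest of the 8 at -3.83.

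In the ranking of the 9 mRNAs by level per length, TK1 and RRM2 moved from one end to the other. In siRPS19 it ran TYMS (37.8 ± 1.74 CPM per kilobase), RRM2B (26.9 ± 0.767), RRM1 (14.0 ± 0.417), DUT (7.92 ± 0.289), SAMHD1 (6.20 ± 0.404), TK2 (3.79 ± 0.323), DCK (3.27 ± 0.147), TK1 (2.09 ± 0.202) and RRM2 (1.27 ± 0.317; SD, n = 3 each). In siOTP it ran TK1 (127 ± 8.66 CPM per kilobase), RRM2 (69.0 ± 0.0843), RRM1 (54.3 ± 0.930), TYMS (48.7 ± 1.90), DUT (24.1 ± 1.08), RRM2B (13.7 ± 0.295), DCK (11.9 ± 0.878), SAMHD1 (6.82 ± 0.0774) and TK2 (2.30 ± 0.0147; SD, n = 3 each). The siOTP SDs of RRM2, SAMHD1 and TK2 lie below counting noise, with at most 738 counts for SAMHD1 and 346 for TK2. They overstate the precision there. Neighbours in both rankings had library ranges that did not overlap. The step from TK2 to DCK in siRPS19 was narrow, with the lowest TK2 library at 3.43 and the highest DCK library at 3.42 CPM per kilobase. TK1 and RRM2 were the lowest in siRPS19 and the highest in siOTP, while RRM1 and DCK held the same rank in both groups. TK1 and RRM2 together made up 3.26% ± 0.457 of the summed level of the 9 genes in siRPS19 and 54.8% ± 1.02 in siOTP, while TYMS made up 36.6% ± 1.11 of it in siRPS19 and 13.6% ± 0.799 of it in siOTP (SD, n = 3 each). The sum itself was 103 ± 1.90 CPM per kilobase in siRPS19 and 358 ± 9.21 in siOTP. The authors' deposited table, which has 1 RPKM value per group, lists TYMS at 41.46 RPKM in siRPS19 and 44.02 RPKM in siOTP, and RRM2 at 1.41 RPKM in siRPS19 and 62.23 RPKM in siOTP. For SAMHD1 the authors' deposited table lists 6.81 RPKM in siRPS19 and 6.16 RPKM in siOTP, the opposite order to the TMM-scaled CPM.

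**Figure D4:**
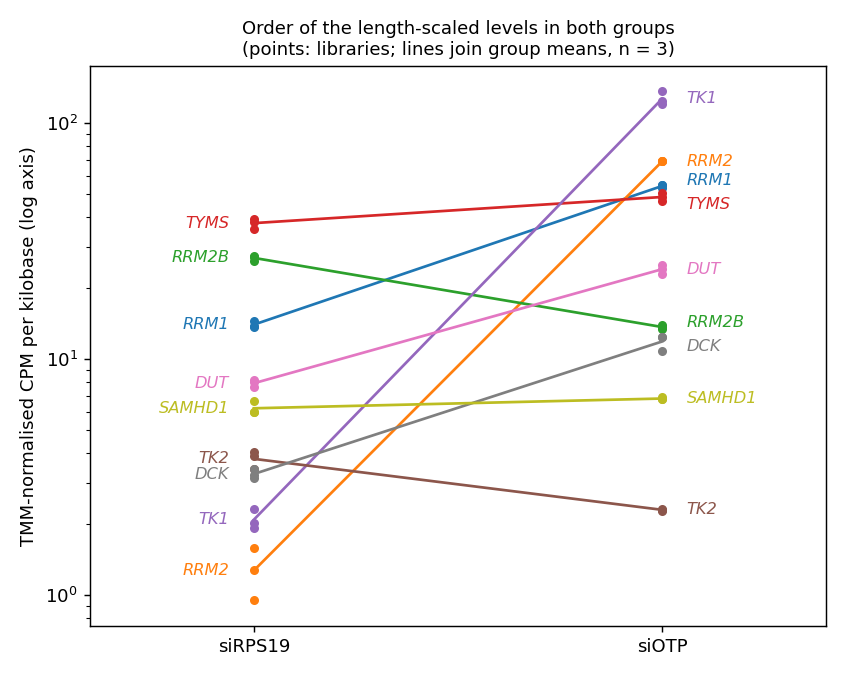
TMM-normalised CPM per kilobase (log axis) of the 9 enzymes in siRPS19 (left) and siOTP (right), with points for libraries and lines joining group means. The lines of TK1 and RRM2 cross all others, with 2.09 and 1.27 CPM per kilobase in siRPS19 and 127 and 69.0 in siOTP, while TYMS and SAMHD1 run almost level.

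Among all tested genes, those whose level over the 6 libraries moved most like RRM2 (smallest distance between centred log2 CPM profiles) were the origin licensing factor CDC6, the mitotic kinase PLK1, GTSE1, the spindle protein ASPM and the helicase ERCC6L. The distances were 0.15 to 0.35 on the log2 scale, and their log2 fold changes ran from -5.86 to -5.60. Among the nearest to RRM2B were PLEKHA1, the interleukin receptor IL4R, S100A10 and ASCC3, with distances of 0.04 to 0.07 and log2 fold changes of 0.94 to 0.99. With 2 groups, such a likeness says mainly that the groups differed by the same amount.

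Other genes of deoxynucleotide metabolism, in 8 lists with 76 genes, moved in both directions. Of 73 tested, 19 were higher and 45 lower, with a median log2 fold change of -0.38, beside 39.5% higher, 38.9% lower and a median of 0.02 over all tested genes. With library totals 31 were higher and 33 lower and the median was -0.09, beside 9114 higher and 4734 lower of all 17171 and a median of 0.31. The counts of each list below stand against these shares, and with 78.3% of all genes called, a list with most genes called is not set apart by that. The thymidylate cycle fell most among the metabolic lists, with 6 of 9 genes lower, 1 higher and a median of -1.30 (5 lower and 3 higher with library totals). MTHFD2, a mitochondrial enzyme of one-carbon supply, fell 6.06-fold, with 39.8 ± 0.761 CPM in siRPS19 libraries and 241 ± 1.94 CPM in siOTP libraries (SD, n = 3 each, adjusted p = 6.77e-22). SHMT2, also mitochondrial, fell 3.20-fold. The gene that rose was C18orf56, with the strand caveat given for TYMS. MTHFD2 overlaps SLC4A5 and SHMT2 overlaps NDUFA4L2, so their counts carry the same uncertainty. It holds as well for AK1, NME4, NME7, DCTPP1, SLC29A3, SSBP1, RNASEH1, MGME1, FZR1, CCNF and ATM below, which also overlap annotated genes.

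Of 10 deoxynucleoside and nucleotide kinases, 5 were higher and 4 lower, or 7 and 2 with library totals. DTYMK, which turns dTMP from TYMS, TK1 and TK2 into dTDP, fell 4.75-fold, with 20.6 ± 0.882 CPM in siRPS19 libraries and 97.6 ± 5.48 CPM in siOTP libraries (SD, n = 3 each, adjusted p = 1.03e-18). The adenylate kinase AK1 rose 6.27-fold. CMPK1, a pyrimidine monophosphate kinase, had a log2 fold change of -0.13, but 0.16 with library totals and 0.04 with upper-quartile factors. Of 5 tested nucleoside diphosphate kinases, 1 was higher and 2 lower: mitochondrial NME4 fell 3.92-fold, NME7 fell 1.35-fold and NME1 rose 1.28-fold. With library totals 3 were higher and 1 lower, and NME7 no longer passed (adjusted p = 0.062). NME1 overlaps NME2 and the readthrough gene NME1-NME2, and NME2 was listed at 0 in every library.

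Enzymes that clean the pool of damaged or unwanted nucleotides divided, with 3 of 8 higher and 5 lower, or 5 higher and 3 lower with library totals. NUDT1 (MTH1), which hydrolyses oxidised purine nucleotides, fell 4.67-fold and the dCTP pyrophosphatase DCTPP1 2.61-fold. NUDT16, NUDT18 and ITPA, which hydrolyses deaminated purine nucleotides, rose 1.59-fold, 1.46-fold and 1.30-fold. Of 14 genes of deoxynucleotide breakdown, 6 were higher and 7 lower, or 7 and 3 with library totals. Adenosine deaminase ADA rose 2.79-fold, the 5'-nucleotidase NT5E (CD73) 2.87-fold and thymidine phosphorylase TYMP 1.80-fold, while uridine phosphorylase UPP1 fell 2.45-fold. ADA overlaps PKIG, and TYMP overlaps SCO2 and ODF3B. The medians of both lists, -0.14 and -0.08, were 0.15 and 0.20 with library totals.

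Among transporters, 1 of 6 was higher and 4 lower, or 2 and 3 with library totals. The equilibrative nucleoside transporter SLC29A1 fell 1.47-fold, and the lysosomal transporter SLC29A3 rose 2.68-fold. Of 8 genes that copy or maintain mitochondrial DNA, which TK2 and RRM2B supply, 7 were lower and 1 higher, or 6 and 1 with library totals. SSBP1, TFAM and RNASEH1 fell 1.72-fold, 1.73-fold and 2.01-fold, and MGME1 rose 1.34-fold.

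Of 13 genes listed as regulators of the members, 10 were lower and 1 higher, with a median of -2.70. With library totals 10 were lower and 3 higher, with a median of -2.41. CDK1 and cyclin A2 (CCNA2), whose complexes phosphorylate SAMHD1 in cycling cells, fell 39.4-fold and 43.2-fold. CDK1 had 4.50 ± 0.226 CPM in siRPS19 libraries and 178 ± 5.25 CPM in siOTP libraries, and CCNA2 had 2.86 ± 0.460 CPM in siRPS19 libraries and 125 ± 4.31 CPM in siOTP libraries (SD, n = 3 each). CCNA2 overlaps EXOSC9. The log2 fold change of SAMHD1 mRNA lay between -0.21 and 0.15 over all settings. CDC20, an activator of the anaphase-promoting complex, fell 67.8-fold, while FZR1 of the same list fell only 1.70-fold. Whether CDC20 acts on any of the members was not tested. Cyclin F (CCNF), which marks RRM2 for degradation, fell 4.97-fold. CCNF and FZR1 were picked with their values in view. ATM, a kinase that phosphorylates RRM2B after DNA damage, rose 1.29-fold.

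**Figure D5:**
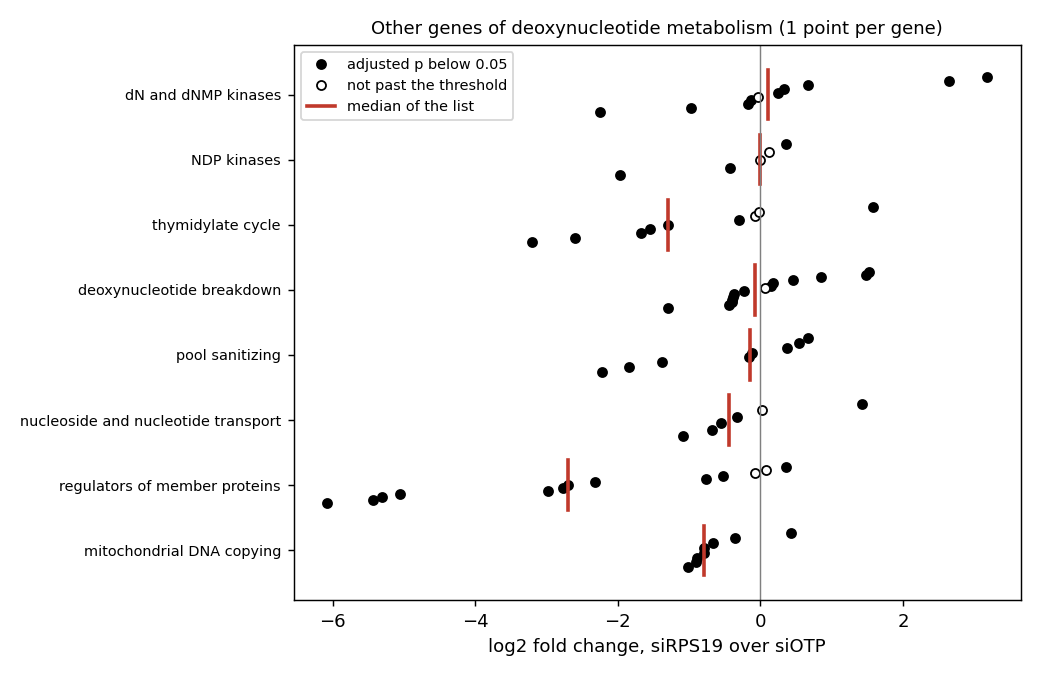
Log2 fold change of siRPS19 over siOTP (x axis) of the tested genes of 8 lists around deoxynucleotide metabolism, 1 point per gene, filled where the adjusted p was below 0.05, with the list median in red. The thymidylate cycle (median -1.30) and the regulators (median -2.70) lie furthest to the left, and the other medians lie between -0.79 and 0.11.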

How the data were processed

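RNA of 3 siRPS19 and 3 siOTP libraries of A549 cells was sequenced as read pairs. TopHat2 (2.0.8b), HTSeq, R (3.0.2) and DESeq are named in the submitters' processing notes, with build hg19. No source used here gives the counting mode or the annotation release. The authors deposited raw read counts per Ensembl gene for each library, used for every test. They also deposited RPKM values, 1 per group, which equalled the group's mean count plus 1 divided by transcript length and the group total for 100% of 62729 genes (tolerance 0.0051 RPKM).

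Entries that name no gene were left out of library sizes: besides reads outside genes, ambiguous reads made up 7.50% to 7.60% in siRPS19 and 8.10% to 8.24% in siOTP. Genes passed filterByExpr (minimum count 10, total 15) in edgeR 4.0.16. TMM factors, robust glmQLFit and glmQLFTest in R 4.3.3 gave fold changes, with Benjamini-Hochberg adjustment over 17171 genes. SE was derived from the fold change and F. The fit was tested on simulated data. CPM per kilobase used the authors' transcript lengths. Log ratios used a prior of 0.5 counts and exact permutation tests over libraries.

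Replicates differed by more than sampling noise (chi-square per degree of freedom 4.40 to 16.6). Same-numbered replicates of both groups share a date in the labels, which pairs them; their deviations correlated at 0.097, -0.12 and 0.066 over 14715 genes. The fit without this block is reported. Alternatives were other scalings, filters, tools (DESeq2 1.42.0, limma-voom 3.58.1), the block, and leaving out libraries. Named genes are the members, genes overlapping them, the nearest profiles, and in each list the 3 smallest p and up to 3 genes against its majority. The members and lists were chosen with earlier results of these data known. Some genes that this rule names are not reported here.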

Additional observations from a re-analysis of the deposited data

How the results depend on the processing

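RRM1, RRM2, RRM2B, TK1, TK2, DUT and DCK kept their direction and their side of the threshold in all 17 alternatives. Leaving out libraries gave log2 fold changes of -5.93 to -5.60 for RRM2, -5.99 to -5.85 for TK1, 0.94 to 1.01 for RRM2B and 0.68 to 0.78 for TK2. TYMS was lower in all 17 as well, but with library totals it no longer passed, at -0.082 (adjusted p = 0.12). SAMHD1 reversed with library totals (0.15) and upper-quartile factors (0.034), and lost its call when genes needed a mean CPM of 1 (-0.090) and with DESeq2 (-0.14, adjusted p = 0.10); leaving out 1 library gave -0.198 to -0.098, and leaving out a replicate number in both groups gave -0.209, -0.103 and -0.102, the call being lost without replicate 1 or 3. Library totals and upper-quartile factors move all genes by a median of 0.29 and 0.17, a shift as large as the change of SAMHD1. CMPK1 reversed as well, to 0.16 with library totals and 0.044 with upper-quartile factors, and the pathway genes called higher numbered 31 against 19 with library totals. Adding the replicate number as a block changed no call of a member (RRM2 at -5.76, adjusted p = 2.40e-07; RRM2B at 0.97; SAMHD1 at -0.14, adjusted p = 0.033), and the exact sign-flip test of the ratios cannot go below 0.25. Over 10 alternatives each, the change in the log2 ratio of RRM2 to RRM2B ran from -6.95 to -6.55. That in the RRM2B share ran from 77.7 to 79.5 percentage points. Among these alternatives, the block cannot move either change. Leaving out transcript length cannot move that of the log2 ratio, which stayed at -6.76. RRM2 and TK1 in siRPS19 rest on 87 to 190 counts per library, and their coefficients of variation there were 24.8% and 9.67%.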
